A study of Mus musculus with 18 samples.

Results

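The MHC class II genes and Ciita are 10 genes, taken from the 16474 genes of the deposited expression table by their symbols: Ciita, H2-Aa, H2-Ab1, H2-Eb1, Cd74, H2-DMa, H2-DMb1, H2-DMb2, H2-Oa and H2-Ob. RNA was sequenced from bone marrow derived macrophages of C57BL/6 mice, 8 weeks old, that were p110g-/- or WT. Pik3cg encodes p110g, the catalytic subunit of phosphoinositide 3-kinase gamma. M-CSF, the growth factor that drives macrophage differentiation, was given to all marrow at 50 ng/ml over a first 6 days. Cells of either genotype then received IL-4 (20 ng/ml, with 20 ng/ml M-CSF, 48 h), IFNg/LPS (IFNg and 100 ng/ml LPS, with 20 ng/ml M-CSF, 24 h) or M-CSF alone (20 ng/ml, 24 h). Each of the 6 groups has 3 libraries, numbered 1 to 3 in the labels. Every contrast of IL-4 therefore differs in time as well as in stimulus. The sources used here do not say how the p110g-/- allele was made, or whether libraries of the same group derive from different mice or dishes, so p-values measure the spread between these libraries, which may be technical.

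MHC class II molecules are pairs of an alpha and a beta chain that carry peptides from endocytosed protein to the cell surface, where CD4+ T cells read them. New pairs travel with the invariant chain, the product of Cd74, whose remnant is exchanged for peptide by H2-DM, while H2-DO restrains H2-DM and is best known from B cells. Their genes are known to share an upstream X1, X2 and Y box module bound by the RFX complex, CREB family factors and NF-Y, on which the coactivator encoded by Ciita assembles. Ciita itself is known to be induced by interferon gamma in macrophages. C57BL/6 mice carry a defective H2-Ea gene, so the H2-Eb1 product does not reach the surface as an I-E molecule.

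The upstream sequences show how far the core letters of this module are present. RefSeq promoter windows of GRCm38.p6, from 250 bases before to 50 after the start site, were at hand for 7 of the 10 genes. The stretch around the Y box is printed 5′ to 3′ in the direction of the gene for the 6 whose window holds it. Capitals mark the Y box core TGATTGG and, where they precede it in this order, the X1 core GNAAC and the X2 core TGANG.
H2-Aa (chr17:34287859-34287928, minus strand): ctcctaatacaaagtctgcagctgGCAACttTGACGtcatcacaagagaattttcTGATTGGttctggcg
H2-Eb1 (chr17:34305751-34305820, plus strand): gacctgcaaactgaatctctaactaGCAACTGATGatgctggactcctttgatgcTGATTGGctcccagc
H2-DMb1 (chr17:34153073-34153142, plus strand): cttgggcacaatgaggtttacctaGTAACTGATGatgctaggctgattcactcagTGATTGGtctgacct
H2-DMb2 (chr17:34145102-34145171, plus strand): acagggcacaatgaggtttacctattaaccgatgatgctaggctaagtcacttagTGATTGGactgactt
H2-Ob (chr17:34238791-34238860, plus strand): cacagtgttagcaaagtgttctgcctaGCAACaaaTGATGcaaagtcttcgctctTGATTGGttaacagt
H2-Oa (chr17:34092279-34092348, plus strand): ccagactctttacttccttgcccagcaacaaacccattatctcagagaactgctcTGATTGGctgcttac
The Y box core started at position -50 from the start site in H2-Aa, -61 in H2-Eb1, -63 in H2-DMb1, -92 in H2-DMb2, -59 in H2-Ob and -45 in H2-Oa. The cores stood in order X1, X2, Y in 4 windows, with 28 to 31 bases from the start of X1 to the start of Y, and neither of the H2-DMa windows holds TGATTGG. Of all 32851 RefSeq promoter windows of this length, searched on both strands, 7.82% hold TGATTGG, 84.8% GNAAC and 89.4% TGANG, and 43 (0.131%) hold all 3 cores in that order with 15 to 50 bases from X1 to Y. The 3 cores of such a match do not overlap each other. The letters were chosen with these sequences in view, and a match describes the window and is not evidence of binding.

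All values are the authors' normalised values, which are read counts of a gene divided by 1 factor per library. The libraries held 40.1 to 69.6 M (1e6) reads, and 3 reads corresponded to a value of 2.15 to 4.74. Pik3cg, the check of the genotype label, averaged 1001 ± 71.2 in p110g-/- IL-4 libraries against 3101 ± 166 in WT IL-4 libraries, and 1966 ± 79.2 against 5210 ± 188 in M-CSF (SD, n = 3 each). Under IFNg/LPS it did not separate the genotypes. The WT IFNg/LPS libraries had 3559.5, 2309 and 2604, lower than in M-CSF (log2 -0.91, adjusted p = 0.0026, limma). Numbers 2 and 3 of the p110g-/- IFNg/LPS group had 1410.5 and 2037, below all 3 WT values. Number 1 of that group had 3691 and goes against its label. Results under IFNg/LPS that turn on that library are therefore also given without it. The summed level of 8 macrophage markers lay between 471427 and 1048810 in every library, all 8 above 0. All 9 dendritic cell markers were in the table, but their sum was mostly Itgax, which macrophages also express, and under IFNg/LPS also Ccr7. The highest values of the defining genes Flt3 and Zbtb46 in any library were 72.4 and 88.2. Those of Batf3, Xcr1, Dpp4, Cd209a and Clec9a were 1852.5, 947.8, 248, 113.7 and 99. Of 9 B cell markers 7 were in the table, with sums of 491 to 3201, and of 8 T and NK cell markers 5, with sums of 252.5 to 2718. In such bulk RNA, more cells that express a gene and more RNA per cell cannot be told apart.

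IL-4 was the stimulus under which the class II genes stood highest. It raised 8 of the 10 genes in p110g-/- cells and the same 8 in WT cells: Ciita, the 3 classical chain genes, Cd74 and the 3 H2-DM genes. Their log2 fold changes against M-CSF were 1.86 to 3.02 in p110g-/- cells and 1.53 to 2.82 in WT cells. H2-Oa and H2-Ob, the H2-DO genes, did not pass the test. Over all 15627 genes tested, 22.7% were called higher in p110g-/- cells and 22.9% in WT cells, and the median log2 fold change was -0.01 and 0.00, against 2.22 and 1.94 for the 10 class II genes, all of which passed the filter on low values. Groups did not overlap for the 8 genes in either genotype, against 29.9% of all tested genes in p110g-/- cells and 29.8% in WT cells. Every one of the 8 calls held in each of 32 alternative analyses in either genotype.

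Markers of other cell types also changed under IL-4. Of the 9 dendritic cell markers it raised Batf3, Itgax and Zbtb46 and lowered Cd209a, Dpp4 and Flt3 in both genotypes. The log2 fold changes of Batf3, Itgax and Zbtb46 were 3.18, 2.18 and 2.64 in p110g-/- cells and 3.10, 2.81 and 2.06 in WT cells, and these 3 calls held in all 32 alternatives. Zbtb46, a transcription factor of classical dendritic cells, averaged 77.9 ± 11.2 in p110g-/- IL-4 libraries against 11.8 ± 3.26 in p110g-/- M-CSF libraries, and 69.6 ± 21.8 in WT IL-4 libraries against 15.8 ± 4.56 in WT M-CSF libraries (SD, n = 3 each). Flt3, the receptor of dendritic cell precursors, fell (log2 -2.53 and -2.29), a call that ended in p110g-/- cells without p110g-/- M-CSF 1 or p110g-/- IL-4 2 and in WT cells without WT M-CSF 1, 2 or 3 or WT IL-4 2 or 3, with adjusted p up to 0.19 and 0.36. Of 8 macrophage markers IL-4 raised none and lowered 5 in p110g-/- cells and 6 in WT cells. Of all tested genes 21.2% and 21.1% were called lower. The sum of the 8 was 471427 to 555132 in p110g-/- IL-4 libraries against 939858 to 973198 in M-CSF. In WT libraries it was 512479 to 573948 against 889689 to 1048810. Of the T and NK cell markers Cd2 rose (log2 4.87 and 3.14) and Cd4 fell (-2.91 and -2.60). Of the B cell markers Cd79b fell in WT cells (-1.07). The part of any of these cells in the class II values was not tested.

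Together the 10 genes took 1.65% ± 0.067 of the reads in p110g-/- IL-4 libraries and 0.992% ± 0.193 in WT IL-4 libraries, of which Cd74 took 0.999% ± 0.029 and 0.622% ± 0.108. Under IFNg/LPS the 10 genes took 0.436% ± 0.092 in p110g-/- libraries and 0.287% ± 0.016 in WT libraries. In M-CSF they took 0.372% ± 0.153 in p110g-/- libraries and 0.256% ± 0.102 in WT libraries (SD, n = 3 each).

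**Figure D1:**
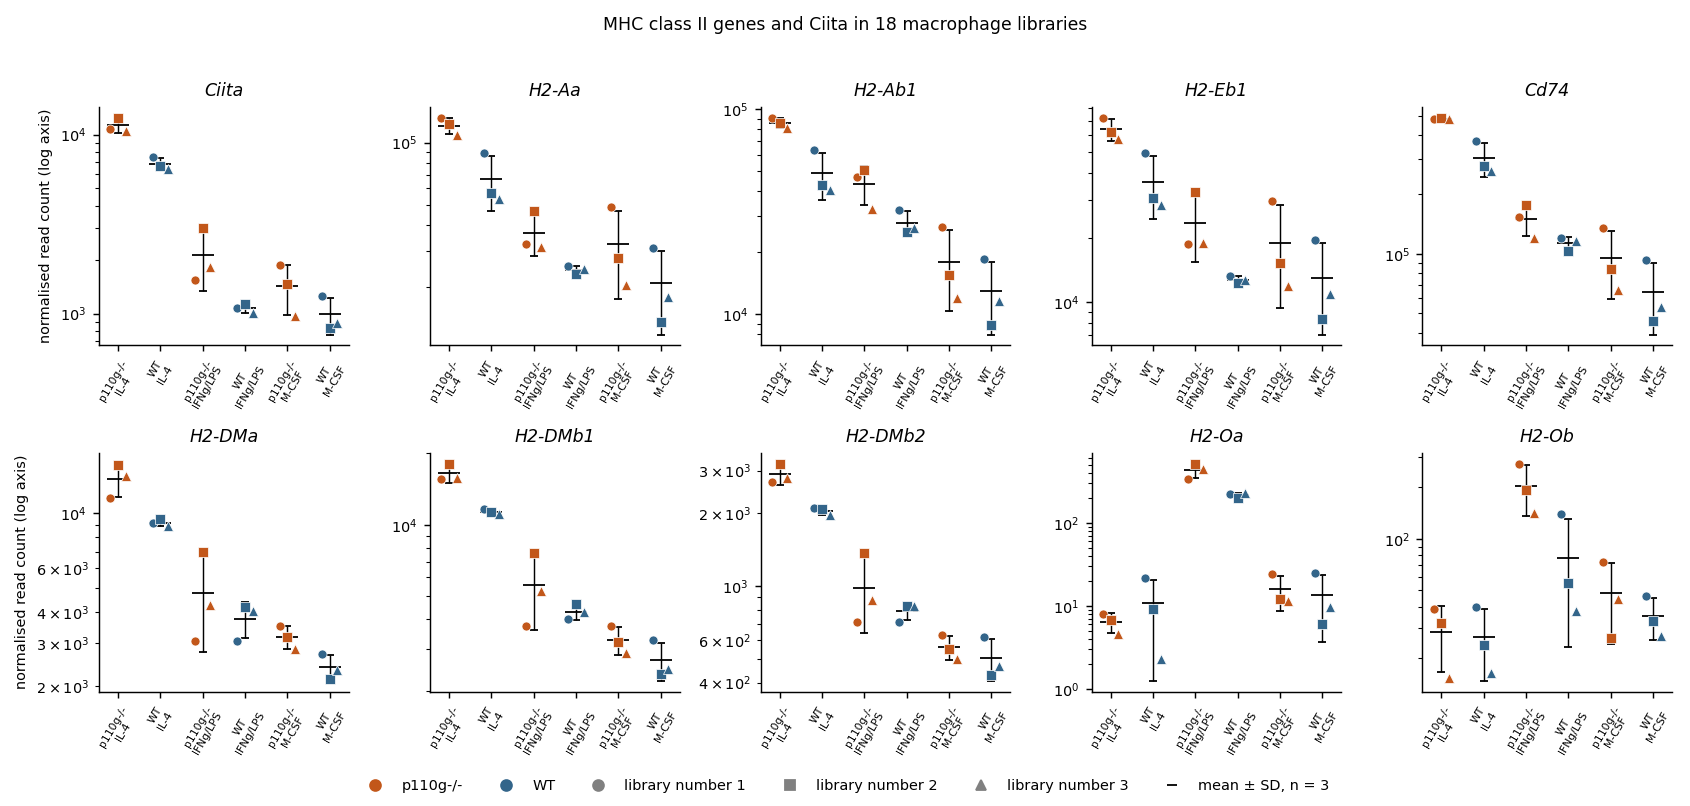
Normalised value of each of the 10 genes in each of the 18 libraries (log axis), by genotype and stimulus, with marker shapes for library numbers 1 to 3 and bars for the mean ± SD (n = 3). Ciita, the classical chain genes, Cd74 and the H2-DM genes are highest in the IL-4 libraries, whereas H2-Oa lies at 198 to 507 under IFNg/LPS and at 24.6 or less in all other libraries.

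Ciita encodes the coactivator of the module described above. It held 10802, 12436 and 10497 in p110g-/- IL-4 libraries number 1, 2 and 3, against 7453, 6702 and 6463 in WT IL-4 libraries. Under IFNg/LPS it held 1533, 3008 and 1826 in p110g-/- libraries against 1073, 1133.5 and 1009 in WT libraries. In M-CSF it held 1867, 1455 and 975 in p110g-/- libraries against 1249, 830 and 889.8 in WT libraries. All IL-4 libraries lay above all others, while the IFNg/LPS and M-CSF libraries overlapped in both genotypes. IL-4 raised Ciita by a log2 fold change of 3.02 in p110g-/- cells (SE 0.23, 8.10-fold, adjusted p = 9.9e-08) and 2.82 in WT cells (SE 0.23, 7.04-fold, adjusted p = 2.6e-07). These log2 fold changes and adjusted p-values are from limma on log2(value + 1) across all tested genes, a scale that understates the change of low genes.

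The classical chains are encoded by H2-Aa (alpha) and H2-Ab1 (beta), which pair as I-A, and by H2-Eb1. H2-Aa held 130871, 122784 and 108845 in p110g-/- IL-4 libraries against 88763, 56840.2 and 53335 in WT IL-4 libraries. Under IFNg/LPS it held 32301, 46535 and 31469.9 in p110g-/- libraries against 25216, 23116 and 24523 in WT libraries. In M-CSF it held 48669, 27569 and 20456 in p110g-/- libraries against 31054, 13647 and 17934 in WT libraries. The M-CSF library number 1 of each genotype lay above every IFNg/LPS library of that genotype, so these groups overlapped, and the IL-4 libraries lay above both. Under IL-4 H2-Aa rose 3.99-fold in p110g-/- cells (log2 2.00, SE 0.31, adjusted p = 8.9e-05) and 3.28-fold in WT cells (log2 1.72, SE 0.31, adjusted p = 0.00037).

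H2-Ab1 held 90962, 85682 and 80651 in p110g-/- IL-4 libraries against 63304, 42675 and 40387 in WT IL-4 libraries. Under IFNg/LPS it held 46648, 50721 and 32712 in p110g-/- libraries against 32338, 25254 and 26405 in WT libraries. Its M-CSF values were 26622, 15561 and 11977 in p110g-/- libraries against 18569, 8829.5 and 11537 in WT libraries. Here all 3 stimuli separated within each genotype, in the order IL-4, IFNg/LPS, M-CSF. H2-Ab1 rose 5.02-fold under IL-4 in p110g-/- cells (log2 2.33, SE 0.29, adjusted p = 1.2e-05) and 3.86-fold in WT cells (log2 1.95, adjusted p = 6.9e-05).

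H2-Eb1 averaged 64044 ± 7553 in p110g-/- IL-4 libraries and 36149 ± 11746 in WT IL-4 libraries. Under IFNg/LPS it averaged 23322 ± 7965 in p110g-/- libraries and 12739 ± 427 in WT libraries. In M-CSF it averaged 18945 ± 9516 in p110g-/- libraries and 12920 ± 5870 in WT libraries (SD, n = 3 each). Its pattern was that of H2-Aa, with overlap of IFNg/LPS and M-CSF in both genotypes, and IL-4 raised it 3.64-fold in p110g-/- cells (adjusted p = 0.00040) and 2.89-fold in WT cells (adjusted p = 0.0020).

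Cd74 held 480074, 488022 and 478126 in p110g-/- IL-4 libraries against 370904, 279202 and 261824 in WT IL-4 libraries. Under IFNg/LPS it held 154106, 175934 and 120857 in p110g-/- libraries against 120224, 102870 and 115712 in WT libraries. The M-CSF values were 134958, 83681 and 65699 in p110g-/- libraries against 93011, 46024 and 53793 in WT libraries. The p110g-/- IL-4 libraries lay within a narrow range, above every WT library. Under IL-4 Cd74 rose 5.32-fold in p110g-/- cells (log2 2.41, SE 0.26, adjusted p = 2.8e-06) and 4.90-fold in WT cells (log2 2.29, SE 0.26, adjusted p = 5.1e-06).

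The H2-DM chain genes, which encode the peptide exchange factor, moved as a block. H2-DMa averaged 13770 ± 2089 in p110g-/- IL-4 libraries and 9138 ± 285 in WT IL-4 libraries, 4774 ± 2015 and 3747 ± 618 under IFNg/LPS, and 3173 ± 341 and 2395 ± 287 in M-CSF (SD, n = 3 each). H2-DMb1 averaged 16458 ± 1413 in p110g-/- IL-4 libraries and 11350.0 ± 311 in WT IL-4 libraries, 5550 ± 1939 and 4302 ± 320 under IFNg/LPS, and 3273 ± 440 and 2695 ± 491 in M-CSF. H2-DMb2 averaged 2896 ± 269 and 2045 ± 72.7 in these IL-4 groups, 985 ± 342 and 789 ± 66.0 under IFNg/LPS, and 558 ± 64.3 and 505 ± 98.0 in M-CSF, p110g-/- before WT. For all 3 genes every IL-4 library lay above every library of the other stimuli. IL-4 raised H2-DMa, H2-DMb1 and H2-DMb2 4.32-fold, 5.05-fold and 5.19-fold in p110g-/- cells and 3.83-fold, 4.25-fold and 4.09-fold in WT cells, with adjusted p from 9.9e-08 to 5.2e-06.

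The H2-DO genes had another pattern. H2-Oa, the alpha chain of H2-DO, held 340, 507 and 445 in p110g-/- IFNg/LPS libraries against 221.5, 198 and 226 in WT IFNg/LPS libraries. Under IL-4 it held 7.9, 6.8 and 4.6 in p110g-/- libraries against 21.4, 9.1 and 2.3 in WT libraries, from 2 to 23 reads. Its M-CSF values were 24.1, 12 and 11.4 in p110g-/- libraries against 24.6, 6.1 and 9.7 in WT libraries, from 7 to 32 reads. IFNg/LPS thus separated from both other stimuli, and IL-4 and M-CSF overlapped in WT cells. In p110g-/- cells each IL-4 library was below each M-CSF library, as were 28.1% of all tested genes, but the log2 fold change of -1.13 (SE 0.56) had an adjusted p of 0.11. In WT cells it was -0.46 (adjusted p = 0.53).

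H2-Ob, the beta chain of H2-DO, held 274.5, 194 and 141 in p110g-/- IFNg/LPS libraries against 139, 55.1 and 37.9 in WT IFNg/LPS libraries. Under IL-4 it held 38.7, 32 and 15.4 in p110g-/- libraries against 39.9, 24.1 and 16.4 in WT libraries. Its M-CSF values were 73.6, 26.2 and 44.7 in p110g-/- libraries against 46.1, 33.2 and 27.1 in WT libraries. Only the p110g-/- IFNg/LPS libraries stood clear of the IL-4 and M-CSF libraries of their genotype. The IL-4 change of H2-Ob against M-CSF was -0.70 in p110g-/- cells (adjusted p = 0.27, and 0.049 with library number as a replicate block, a fit in which the numbers count as pairs) and -0.45 in WT cells (adjusted p = 0.49).

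IFNg/LPS changed the class II genes less evenly. Against M-CSF it raised 8 of the 10 genes in p110g-/- cells, where 36.2% of all tested genes were called higher, and 6 in WT cells, where 36.3% were. The median log2 fold change of the 10 genes was 0.71 in p110g-/- cells and 0.67 in WT cells, with -0.01 over all tested genes in either. Groups did not overlap for 5 of the 10 genes in p110g-/- cells and 6 in WT cells, against 37.3% and 37.7% of all tested genes that lay higher without overlap. The M-CSF libraries are the same as in the IL-4 comparison, so the responses to the 2 stimuli are not independent. Markers of other cell types changed as well. Among the 9 dendritic cell markers, IFNg/LPS raised Ccr7 and Xcr1 by log2 6.58 and 3.15 in p110g-/- cells and 3.67 and 3.54 in WT cells. Dpp4 also rose in both genotypes. Zbtb46 was called higher in p110g-/- cells only (log2 1.59, adjusted p = 0.0012), and Clec9a in WT cells only (log2 1.57, adjusted p = 0.0051). Itgax, Batf3 and Cd209a fell in both genotypes, and Flt3 in WT cells (adjusted p = 0.0498). The B cell markers Cd22 and Cd79b fell in both genotypes, and no B cell marker rose. Of the T and NK cell markers, Cd4 and Klrb1c fell in both genotypes and Cd2 in WT cells, and none rose. The part of such cells was not tested here either.

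H2-Oa had the largest IFNg/LPS change of the 10 genes, 26.7-fold in p110g-/- cells (log2 4.74, SE 0.56, adjusted p = 1.3e-06) and 17.3-fold in WT cells (log2 4.11, adjusted p = 6.3e-06). H2-Ab1 followed among the genes called in both genotypes, at 2.50-fold in p110g-/- cells (log2 1.32, SE 0.29, adjusted p = 0.00066) and 2.25-fold in WT cells (log2 1.17, adjusted p = 0.0017). Both genes passed in all 32 alternatives. For H2-Aa, the partner chain of H2-Ab1, the log2 fold change was 0.26 in p110g-/- cells (adjusted p = 0.45) and 0.30 in WT cells (adjusted p = 0.38), and for H2-Eb1 it was 0.36 (adjusted p = 0.35) and 0.07 (adjusted p = 0.85). H2-Ob rose 4.35-fold in p110g-/- cells (log2 2.12, SE 0.49, adjusted p = 0.0011), whereas in WT cells its change was 0.92 (adjusted p = 0.10). With the replicate block the WT value also passed (adjusted p = 0.0078).

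H2-DMb1 and H2-DMb2 rose by 0.71 (adjusted p = 0.0030) and 0.77 (adjusted p = 0.0014) on the log2 scale in p110g-/- cells and by 0.69 (adjusted p = 0.0038) and 0.66 (adjusted p = 0.0046) in WT cells. Cd74 rose by 0.71 in p110g-/- cells (SE 0.26, adjusted p = 0.021) and 0.88 in WT cells (adjusted p = 0.0062). H2-DMa rose by 0.51 (SE 0.22, adjusted p = 0.046) and 0.64 (adjusted p = 0.015). Ciita rose by 0.56 in p110g-/- cells (SE 0.23, adjusted p = 0.043), and its WT change was 0.14 (adjusted p = 0.61). The smaller of these calls turned on single libraries. In p110g-/- cells the Ciita call ended without any of 10 single libraries (WT M-CSF 3, WT IFNg/LPS 2 or 3, WT IL-4 2 or 3, p110g-/- M-CSF 2 or 3, p110g-/- IFNg/LPS 2, p110g-/- IL-4 1 or 3), at log2 0.27 to 0.59 and adjusted p of 0.051 to 0.26. The H2-DMa call in p110g-/- cells ended without any of 12 (WT M-CSF 2 or 3, WT IFNg/LPS 2 or 3, WT IL-4 1, 2 or 3, p110g-/- M-CSF 2 or 3, p110g-/- IFNg/LPS 2 or 3, p110g-/- IL-4 3), at log2 0.19 to 0.55 and adjusted p of 0.050 to 0.32. In WT cells it ended without WT M-CSF 2 or WT IFNg/LPS 2 or 3, at adjusted p of 0.053 to 0.058. The Cd74 call in p110g-/- cells ended without p110g-/- M-CSF 2 or 3 or p110g-/- IFNg/LPS 1 or 2, at log2 0.48 to 0.69 and adjusted p of 0.050 to 0.12. Without the library labelled p110g-/- IFNg/LPS number 1, 7 genes were called in p110g-/- cells.

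**Figure D2:**
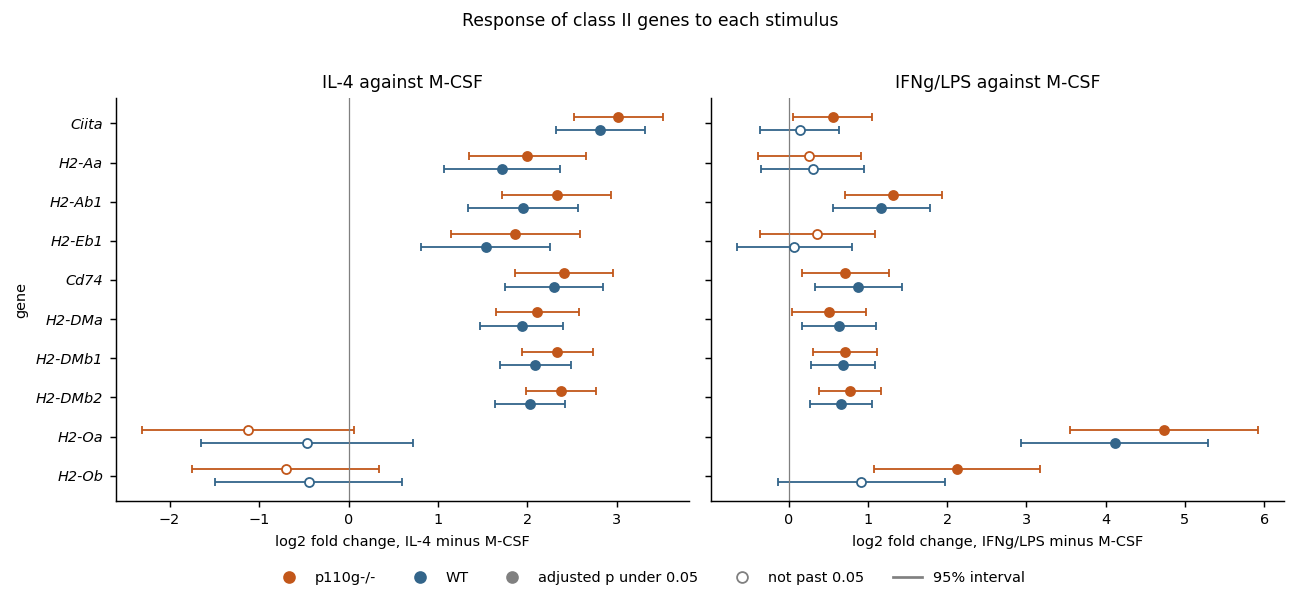
Log2 fold change with its 95% interval (limma, n = 3 libraries a group) of the 10 genes under IL-4 and under IFNg/LPS, each against M-CSF, in p110g-/- and WT cells, with filled markers for an adjusted p under 0.05. IL-4 changes of Ciita, the classical chains, Cd74 and H2-DM lie between 1.53 and 3.02, above their IFNg/LPS changes, and H2-Oa has the reverse order, with 4.74 and 4.11 under IFNg/LPS.

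Set directly against each other, IL-4 (48 h) and IFNg/LPS (24 h) divided the 10 genes into 2 sets. IL-4 was higher for 8 and lower for 2, H2-Oa and H2-Ob, in p110g-/- cells, where 37.9% of all tested genes were called higher and 37.6% lower. The same 8 and 2 genes were called in WT cells, where 38.7% were higher and 37.3% lower. The median log2 difference of the 10 genes was 1.60 in p110g-/- cells and 1.39 in WT cells, with 0.00 over all tested genes in either. Ciita differed most among the 8, by 2.46 in p110g-/- cells (adjusted p = 1.0e-07) and 2.68 in WT cells (adjusted p = 3.7e-08), and H2-Ab1 least, by 1.01 (adjusted p = 0.0049) and 0.78 (adjusted p = 0.022). H2-Oa was lower under IL-4, with a log2 difference of -5.87 in p110g-/- cells (adjusted p = 9.8e-08) and -4.57 in WT cells (adjusted p = 1.7e-06). H2-Ob differed by -2.82 in p110g-/- cells (adjusted p = 8.0e-05) and by -1.36 in WT cells (adjusted p = 0.020), where its groups overlapped. The WT call of H2-Ab1 ended without WT IFNg/LPS 2 or 3 or WT IL-4 1, at log2 0.58 to 0.74 and adjusted p of 0.058 to 0.11. The WT call of H2-Ob ended without WT IFNg/LPS 1 or WT IL-4 3, at log2 -1.07 to -0.84 and adjusted p of 0.089 to 0.13.

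The balance of the I-A chains moved with the stimulus. The ratio of H2-Ab1 to H2-Aa values, which is not corrected for gene length, was 1.04 to 1.44 in p110g-/- IFNg/LPS libraries and 1.08 to 1.28 in WT IFNg/LPS libraries. Under IL-4 it was 0.695 to 0.741 in p110g-/- libraries and 0.713 to 0.757 in WT libraries. In M-CSF it was 0.547 to 0.585 in p110g-/- libraries and 0.598 to 0.647 in WT libraries. The 3 stimuli did not overlap in either genotype, in the order IFNg/LPS, IL-4, M-CSF, although H2-Aa itself ranged from 13647 to 48669 over the M-CSF libraries. In M-CSF the p110g-/- libraries were all below the WT libraries, a difference no test was run on.

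The ratio of H2-Eb1 to H2-Aa stayed between 0.503 and 0.699 in all 18 libraries, and that of H2-DMb2 to H2-DMb1 between 0.166 and 0.192 (0.179 ± 0.0075, SD, n = 18). The H2-DMb genes are near copies of each other. In GENCODE M21 transcripts, 27.2% of the 50-base windows of H2-DMb1 also occur in H2-DMb2, and how the authors assigned shared reads is not given in the sources used here, so the 2 genes may not be independent measurements.

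**Figure D3:**
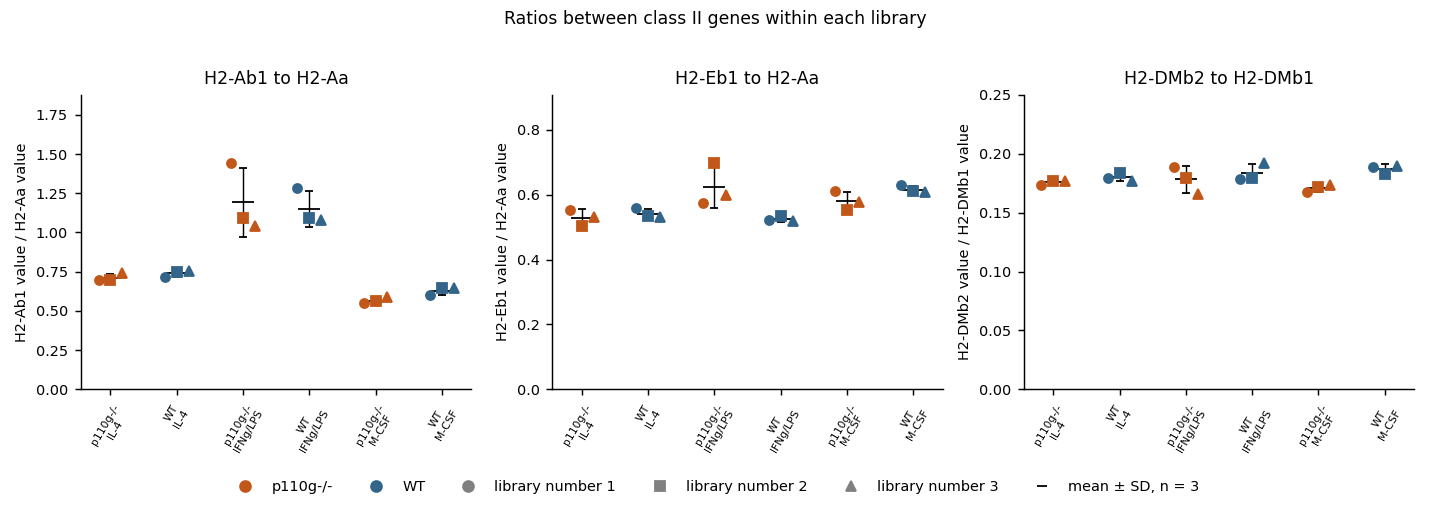
Ratio of normalised values per library for H2-Ab1 to H2-Aa, H2-Eb1 to H2-Aa and H2-DMb2 to H2-DMb1, by genotype and stimulus (linear axis, marker shapes for library numbers). The H2-Ab1 to H2-Aa ratio is 1.04 to 1.44 in the IFNg/LPS libraries and at or below 0.757 in all others, while the others keep to 0.503 to 0.699 and 0.166 to 0.192.

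The genotype comparison asks whether loss of p110g shifts class II expression. In p110g-/- cells the 10 genes lay mostly above WT under every stimulus, but few of the differences passed the test. Under IFNg/LPS 2 genes, Ciita and H2-Ob, were called higher and none lower, where 6.94% of all tested genes were called higher and 7.79% lower. Under IL-4 and in M-CSF none was called, where 1.34% and 1.06% of all tested genes were called higher and 1.99% and 1.27% lower. With edgeR on the recovered reads 0 genes were called under IL-4 and in M-CSF, and with DESeq2 likewise 0. At an unadjusted p under 0.05 limma had 8 genes under IL-4, 4 under IFNg/LPS and 2 in M-CSF. The share of all tested genes at that unadjusted threshold is not given here, so these counts cannot be set against a background. The median log2 fold change of the 10 genes, p110g-/- over WT, was 0.63 under IL-4, 0.60 under IFNg/LPS and 0.44 in M-CSF, against 0.00 over all tested genes in each.

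Groups did not overlap, with p110g-/- higher, for 8 of the 10 genes under IL-4 (11.2% of all tested genes), for 7 under IFNg/LPS (13.4%) and for 1, H2-DMa, in M-CSF (10.7%). Between libraries of the same number, the p110g-/- library was higher than the WT library in 26 of 30 gene and number combinations under IL-4, 28 of 30 under IFNg/LPS and 28 of 30 in M-CSF. Under each stimulus all 3 numbers were in that direction for 8 of the 10 genes, but not for the same 8. The exceptions were H2-Oa and H2-Ob under IL-4 and in M-CSF, and H2-DMb1 and H2-DMb2 under IFNg/LPS. The share over all tested genes was not computed for these counts by number. The genes share their regulation and libraries, so these counts are a description and not 10 or 30 independent observations.

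Under IL-4 the differences ran from 0.50 for H2-DMb2 (SE 0.18, adjusted p = 0.18) to 0.90 for H2-Aa (SE 0.31, 95% interval 0.25 to 1.55, adjusted p = 0.14) among the 8 genes that IL-4 raised. Ciita differed by 0.71 (SE 0.23, adjusted p = 0.13), H2-Ab1 by 0.84 (adjusted p = 0.14), H2-Eb1 by 0.87 (adjusted p = 0.22) and Cd74 by 0.68 (adjusted p = 0.20). H2-Oa and H2-Ob differed by -0.31 (adjusted p = 0.88) and 0.09 (adjusted p = 0.97). The WT IL-4 library number 1 stood apart from numbers 2 and 3, with a median of 1.45 times their mean over the 10 genes and 9 of them above 1. Without the libraries of number 1 in every group, 7 genes were called under IL-4: H2-Aa at 1.07 (adjusted p = 0.013), H2-Ab1 at 1.00 (adjusted p = 0.018), H2-Eb1 at 1.03 (adjusted p = 0.035), Cd74 at 0.84 (adjusted p = 0.0094), H2-DMa at 0.70 (adjusted p = 0.045), H2-DMb1 at 0.59 (adjusted p = 0.022) and H2-DMb2 at 0.57 (adjusted p = 0.0499). Ciita was then at 0.80 (adjusted p = 0.089). Without number 2 or number 3 in every group none was called (lowest adjusted p 0.64 for H2-DMb2 and 0.79 for Ciita). For H2-DMb2 the unadjusted limma p was 0.0073 without number 1 and 0.016 in the main fit, against adjusted p of 0.0499 and 0.18. The share of all tested genes called without number 1 is not given here, so the 7 calls have no background beside them.

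Under IFNg/LPS Ciita was 1.90-fold higher in p110g-/- cells (log2 0.93, SE 0.23, 95% interval 0.43 to 1.42, adjusted p = 0.015). The difference did not rest on the library labelled p110g-/- IFNg/LPS number 1, without which it was 1.13 (adjusted p = 0.0059). The call ended without WT IFNg/LPS number 3 or p110g-/- IFNg/LPS number 2, at log2 0.64 to 0.88 and adjusted p of 0.051 to 0.079. H2-Ob was 2.92-fold higher (log2 1.55, SE 0.49, 95% interval 0.50 to 2.60, adjusted p = 0.046), and the nearest libraries of the 2 groups, 141 and 139, were hardly apart. Its call ended without any of 10 single libraries (WT M-CSF 2 or 3, WT IFNg/LPS 2 or 3, WT IL-4 2, p110g-/- M-CSF 3, p110g-/- IFNg/LPS 1, 2 or 3, p110g-/- IL-4 2), at log2 1.15 to 1.78 and adjusted p of 0.051 to 0.18. The other differences ran from 0.27 for H2-DMb2 (adjusted p = 0.37) to 0.98 for H2-Oa (SE 0.56, adjusted p = 0.27), with H2-Eb1 at 0.82 (adjusted p = 0.12) and H2-Aa at 0.58 (adjusted p = 0.23). H2-Ab1 was at 0.61 (adjusted p = 0.17), and with the replicate block its adjusted p was 0.044. With that block the adjusted p was 0.0018 for H2-Ob and 0.011 for Ciita. With edgeR H2-Ob was not called (adjusted p = 0.055), and with DESeq2 it was (log2 1.40, adjusted p = 0.028). Ciita was called with both (adjusted p = 0.012 with edgeR and 0.00079 with DESeq2).

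The same library, whose Pik3cg level goes against its label, held H2-DMa at 3059, H2-DMb1 at 3759 and H2-DMb2 at 711, within or below the WT values, whereas p110g-/- IFNg/LPS number 2 held 6993.5, 7609.5 and 1369. Without number 1 of that group H2-DMb1 was called at 0.56 (adjusted p = 0.025), H2-DMa was at 0.56 (adjusted p = 0.060), H2-DMb2 at 0.48 (adjusted p = 0.077), and H2-Ob at 1.31 was no longer called (adjusted p = 0.13), so that the count remained 2. Without the libraries of number 1 in every group, 5 genes were called under IFNg/LPS: Ciita at 1.13 (adjusted p = 0.017), H2-Aa at 0.68 (adjusted p = 0.047), H2-Eb1 at 0.99 (adjusted p = 0.026), H2-DMb1 at 0.51 (adjusted p = 0.026) and H2-Ob at 1.83 (adjusted p = 0.0035).

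In M-CSF the differences ran from 0.15 for H2-DMb2 to 0.62 for H2-Aa, with adjusted p of 0.36 or more. Library number 1 was the highest of its group for each of the 10 genes in both genotypes. It had a median of 1.87 times the mean of numbers 2 and 3 over the 10 genes in p110g-/- cells and 1.68 times in WT cells.

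Whether the genotype effect differs between a stimulus and M-CSF was tested as an interaction, and none of the 10 genes was called. For IFNg/LPS minus M-CSF, where 2.44% of all tested genes were called, the difference was 0.42 for Ciita (95% interval -0.29 to 1.12, adjusted p = 0.57) and 1.20 for H2-Ob (-0.28 to 2.69, adjusted p = 0.41). For IL-4 minus M-CSF, where 0% were called, it was highest for H2-Ab1 at 0.38 (-0.49 to 1.24, adjusted p = 0.95). At an unadjusted p under 0.05 limma had 0 of the 10 genes in either, and edgeR and DESeq2 on the recovered reads called 0. For that unadjusted threshold the share of all tested genes is again not given. These intervals still span differences of more than 1 on the log2 scale.

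**Figure D4:**
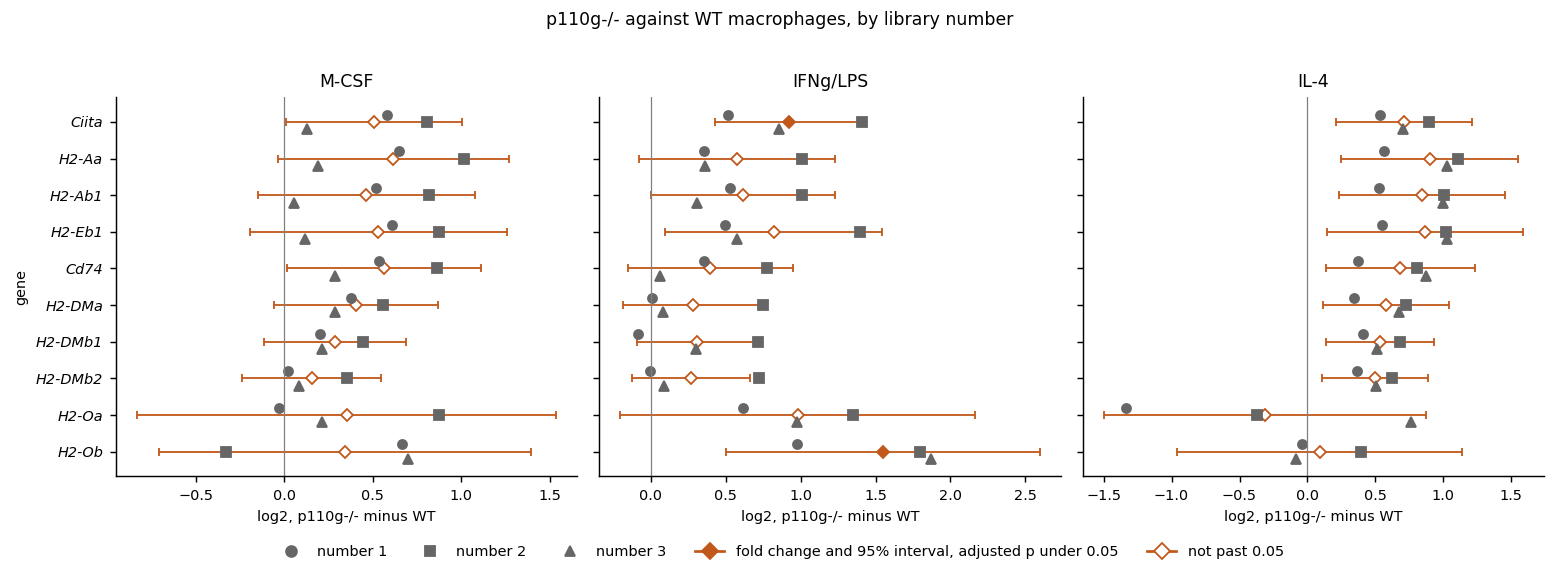
Difference p110g-/- minus WT in log2(value + 1) between libraries of the same number (marker shapes), with the log2 fold change and its 95% interval (limma), for the 10 genes in M-CSF, IFNg/LPS and IL-4. Most points lie above 0, 28, 28 and 26 of 30 in these 3 panels, and 2 fold changes, Ciita and H2-Ob under IFNg/LPS, pass the test.

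Markers of other cell types were read beside these genotype differences. The summed dendritic cell markers were 127691 to 136366 in p110g-/- IL-4 libraries against 116857 to 123069 in WT IL-4 libraries, 17379 to 26027 against 7915 to 10126 under IFNg/LPS, and 20954 to 38251 against 9740.0 to 27329 in M-CSF. Of the 9 genes, Ccr7, a chemokine receptor of mature dendritic cells, was called higher under IFNg/LPS (log2 2.79, adjusted p = 0.0039) at 12095 ± 6899 in p110g-/- libraries and 1979 ± 1686 in WT libraries (SD, n = 3 each), which did not overlap. The Ccr7 call was lost with the libraries of the comparison only and without replicate 2 or 3 in every group (adjusted p up to 0.12). Cd209a was called higher under IL-4 (log2 1.96, adjusted p = 0.0086), a call lost without WT IL-4 3 or p110g-/- IL-4 2 (adjusted p up to 0.53 over all alternatives), and was at 0 in all 6 IFNg/LPS libraries. No B cell marker was called between genotypes, with sums of 1757 to 2507 in p110g-/- IL-4 libraries against 1389 to 2740 in WT IL-4 libraries. Of 5 T and NK cell markers Cd4 was called lower under IFNg/LPS, at 203 ± 32.3 in p110g-/- libraries and 364 ± 15.9 in WT libraries (log2 -0.85, adjusted p = 0.028), a call lost without WT IFNg/LPS 1, 2 or 3 or p110g-/- IFNg/LPS 1 or 3 (adjusted p up to 0.21). Among the macrophage markers reported here, Csf1r was called higher and Cd68, Fcgr1 and Itgam lower in p110g-/- cells under IFNg/LPS, and each of these calls was lost without at least 1 of the IFNg/LPS libraries. The part of any cell type in the class II values was not tested.

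Of 19 genes that regulate class II transcription, IFNg/LPS raised 13 and lowered 3 in each genotype. Of all tested genes 36.2% were called higher and 36.8% lower in p110g-/- cells, and 36.3% and 37.5% in WT cells. The median log2 fold change of the 19 was 0.52 in both genotypes. Socs1, an inhibitor of cytokine signalling, rose by 8.39 in p110g-/- cells and 8.09 in WT cells, and Irf1, an interferon regulatory factor that acts on the Ciita promoter, by 4.23 and 4.34. The 3 that fell were Creb1, Irf4 and Prdm1, and the Creb1 call in p110g-/- cells (log2 -0.23, adjusted p = 0.043) was lost in 12 of 32 alternatives, among them the removal of any single p110g-/- IFNg/LPS library. IL-4 raised 4 of the 19 in p110g-/- cells (Irf4, Socs1, Rfx5 and Nfyc) and 3 in WT cells (Irf4, Socs1 and Nfyc), and lowered 6 and 7. Of all tested genes 22.7% were called higher and 21.2% lower in p110g-/- cells, and 22.9% and 21.1% in WT cells, so the counts of raised regulators were not above the background. Irf4, an interferon regulatory factor of B cells and IL-4 stimulated macrophages, rose by 4.50 under IL-4 in p110g-/- cells (SE 0.28, adjusted p = 1.2e-08) and by 4.18 in WT cells (adjusted p = 3.2e-08). Irf4 averaged 6475 ± 560 in p110g-/- IL-4 libraries and 4996 ± 437 in WT IL-4 libraries, 97.0 ± 48.0 and 67.7 ± 22.8 under IFNg/LPS, and 293 ± 93.7 and 274 ± 26.4 in M-CSF (SD, n = 3 each), the same order of IL-4 above both other stimuli as for Ciita.

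Between genotypes, Rfxank, a subunit of the RFX complex, was lower in p110g-/- cells under IL-4, at 587 ± 22.1 against 807 ± 66.3 in WT (log2 -0.46, SE 0.07, adjusted p = 0.0019), and in M-CSF, at 574 ± 29.2 against 761 ± 30.9 in WT (log2 -0.41, adjusted p = 0.0054). It was the only regulator called in either, and both calls were lost without replicate 2 or 3 in every group (adjusted p up to 0.16 and 0.27). Under IFNg/LPS Stat6, which transmits the IL-4 signal, was higher (log2 0.30, adjusted p = 0.0018), as was Rfx5, the DNA-binding RFX subunit (log2 0.36, adjusted p = 0.026). Sfpi1, which encodes PU.1, was lower (log2 -0.35, adjusted p = 0.0062). Of all tested genes 6.94% were called higher and 7.79% lower between genotypes under IFNg/LPS. Under IL-4 and in M-CSF 1.99% and 1.27% were called lower. The Stat6 and Sfpi1 calls were lost with the libraries of the comparison only and without replicate 2 or 3 in every group, with adjusted p up to 0.19 and 0.17. The Rfx5 call was lost without WT IFNg/LPS 2 or 3 or p110g-/- IFNg/LPS 2 or 3, and over all alternatives its log2 fold change was 0.25 to 0.51 and its adjusted p reached 0.48.

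Of 8 genes for peptide generation and class II turnover, none was called between genotypes in IL-4 or M-CSF. Under IFNg/LPS 3 were lower than in WT, March1, Lgmn and Ctsl, where 7.79% of all tested genes were called lower. March1 encodes a membrane ubiquitin ligase that directs surface class II to degradation. It held 7861, 4238 and 6059 in p110g-/- IFNg/LPS libraries against 16948, 15642 and 17151 in WT IFNg/LPS libraries. In M-CSF it held 6587, 7106 and 6861 in p110g-/- libraries against 6048, 5267 and 5715.5 in WT libraries, and under IL-4 it averaged 5734 ± 350 and 5692 ± 211 (SD, n = 3 each). Every p110g-/- IFNg/LPS library, including the one labelled number 1, thus lay below every WT IFNg/LPS library, and their range enclosed that of the p110g-/- M-CSF libraries. IFNg/LPS raised March1 in WT cells (log2 1.55, SE 0.15, adjusted p = 1.2e-07), its change in p110g-/- cells was -0.22 (adjusted p = 0.18), and the genotype difference under IFNg/LPS was -1.50 (SE 0.15, adjusted p = 9.1e-06), past the threshold in all 32 alternatives.

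Lgmn, an asparaginyl endopeptidase of endosomes, averaged 37066 ± 2782 in p110g-/- IFNg/LPS libraries and 72209 ± 6550 in WT IFNg/LPS libraries (log2 -0.96, SE 0.12, adjusted p = 0.00012). The Lgmn call was lost without replicate 2 in every group (adjusted p = 0.055). Ctsl, the protease cathepsin L, averaged 31038 ± 7634 and 63198 ± 19584 (log2 -1.005, SE 0.27, adjusted p = 0.020), a call that ended without p110g-/- IFNg/LPS number 1 or WT IFNg/LPS number 2 or 3, with adjusted p up to 0.32 and log2 fold changes of -1.29 to -0.79 over all alternatives. Against M-CSF, IFNg/LPS raised Sppl2a, an intramembrane protease that clears the Cd74 remnant, by 1.88 in p110g-/- cells and 2.02 in WT cells, and lowered Ctsf, cathepsin F, by 2.48 and 2.62 (fold changes -2.48 and -2.62). In all it raised 1 of the 8 and lowered 4 (Ctsf, March8, Lgmn and Ctsl) in p110g-/- cells, and raised 2 (Sppl2a and March1) and lowered 3 (Ctsf, March8 and Lgmn) in WT cells. The WT call of Lgmn (log2 -0.29, adjusted p = 0.047) was lost in 17 of 32 alternatives, among them the replicate block, edgeR and the removal of WT M-CSF 1, 2 or 3 or WT IFNg/LPS 1 or 3, with adjusted p up to 0.19.

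IL-4 raised Ifi30 and March8 and lowered Ctsf and Sppl2a in p110g-/- cells. The Ifi30 call (log2 0.76, adjusted p = 0.035) was lost without any single p110g-/- M-CSF or p110g-/- IL-4 library (adjusted p up to 0.19 over all alternatives). The Ctsf call (log2 -0.48) was lost without p110g-/- IL-4 1, and those of March8 (0.33) and Sppl2a (-0.32) without replicate 2 or 3 in every group. In WT cells IL-4 raised Ifi30, March8 and Ctss and lowered Ctsf, Sppl2a and Lgmn. Only the WT call of Ctsf (log2 -0.90) held in all 32 alternatives, and each of the other 5 was lost without at least 1 of the WT M-CSF or WT IL-4 libraries, with adjusted p up to 0.37. The counts of this list are to be read against the same shares of all tested genes as those of the regulators.

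Neighbours of the class II genes in the MHC mostly averaged highest under IFNg/LPS, as did H2-Oa and H2-Ob. Of 8 genes listed 7 were in the table and 6 could be tested. IFNg/LPS raised 5 of the 6 (Tap1, Tap2, Psmb8, Psmb9 and Brd2) in both genotypes, with a median log2 fold change of 2.68 in p110g-/- cells and 2.66 in WT cells. Of all tested genes 36.2% were called higher in p110g-/- cells and 36.3% in WT cells. Tap1 and Tap2, the peptide transporter of class I loading, rose by 4.30 and 3.61 in p110g-/- cells and by 4.01 and 3.49 in WT cells, and Psmb9, an immunoproteasome subunit, by 2.91 and 2.83. IL-4 lowered Tap2 by 0.32 in p110g-/- cells (log2 fold change -0.32, adjusted p = 0.0039), and Tap2 and Tap1 were the 2 genes it lowered in WT cells (-0.31 and -0.59). Both Tap2 calls were lost without replicate 3 in every group (adjusted p = 0.079 and 0.078). No genotype difference among the 6 passed the test. The sixth, H2-Eb2, averaged 15.7 ± 5.75 in p110g-/- IL-4 libraries and 9.30 ± 8.14 in WT IL-4 libraries, 34.0 ± 5.50 and 15.2 ± 2.27 under IFNg/LPS and 26.8 ± 21.0 and 23.0 ± 12.9 in M-CSF, and the lowest library, WT IL-4 number 3, had 3 reads.

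**Figure D5:**
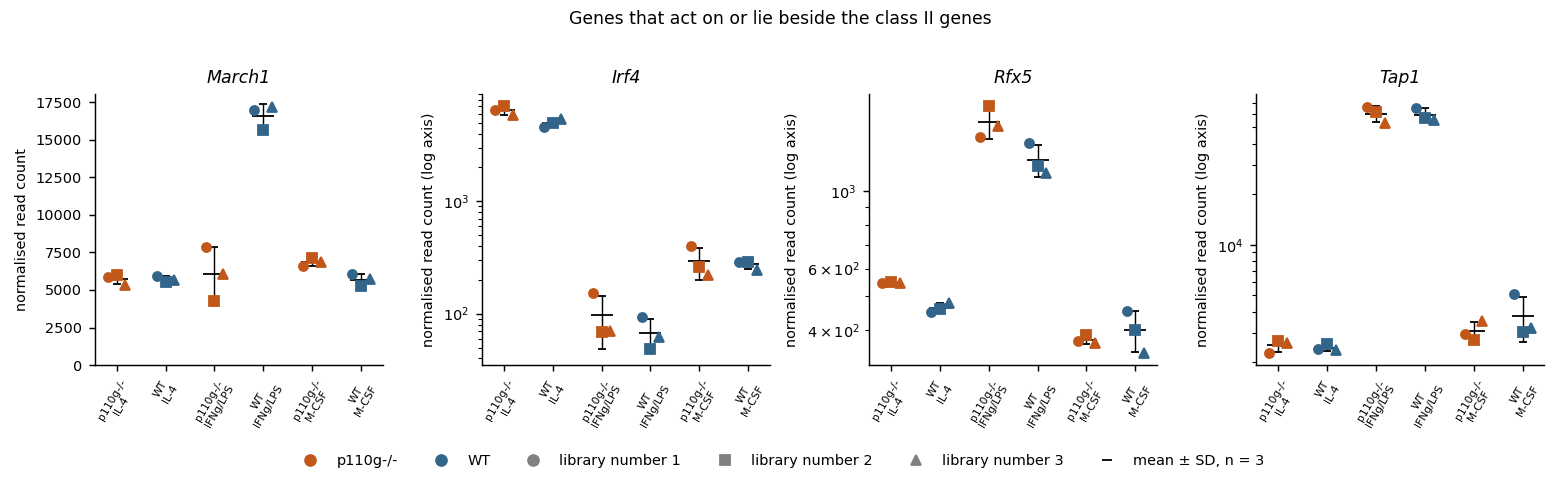
Normalised values per library of March1 (linear axis) and of Irf4, Rfx5 and Tap1 (log axes), by genotype and stimulus, with the mean ± SD (n = 3). March1 is at 15642 to 17151 in the WT IFNg/LPS libraries and at 4238 to 7861 in the p110g-/- IFNg/LPS libraries, Irf4 is highest under IL-4, and Rfx5 and Tap1 are highest under IFNg/LPS.

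Likeness of pattern was measured as the root mean square difference of centred log2(value + 1) over the 18 libraries, with no test. From the mean pattern of H2-Aa, H2-Ab1, H2-Eb1 and Cd74 the median tested gene lay 1.10 away. The closest genes outside the 10 were LOC641240, described in the deposited table as like a class II A beta chain, at 0.289, and LOC639316, described as like an M beta 1 chain, at 0.320. They may share reads with H2-Ab1 and H2-DMb1, so their values are uncertain. Next came Sema4b, a transmembrane semaphorin, at 0.338, then Nbl1 at 0.368, Kcna6 at 0.394 and Tex9 at 0.406. Sema4b averaged 1935 ± 26.2 in p110g-/- IL-4 libraries and 1230.5 ± 119 in WT IL-4 libraries. The H2-DM genes lay at 0.307 to 0.341 and Ciita at 0.552, while H2-Ob was at 1.58 and H2-Oa at 2.76, farther than the median gene.

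From Ciita, where the median tested gene lay 1.47 away, the closest genes outside the 10 were Kcna6, a potassium channel subunit, at 0.352, Awat2 at 0.389, Dab2ip at 0.469, Bcam at 0.469, Aff3 at 0.473 and Bhlhe40, a transcription factor, at 0.486. Of the other class II genes Cd74 was closest to Ciita at 0.480 and H2-DMb1 next at 0.495. All such values share the libraries and the large IL-4 step. In GENCODE M21, exons of Ciita overlap those of Dexi, exons of H2-DMa those of Brd2 and exons of H2-Oa those of BC051537, each on the opposite strand, and without knowledge of strand in the counting, reads of such partners cannot be told apart.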

How the data were processed

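The authors deposited 1 table of normalised expression values, in the unit signal, for 18 libraries. Per the submitters' processing notes, CASAVA 1.8.2, Bowtie2, DESeq and mm9 were used, and the counting method and strand handling are not given in the sources used here. The values were whole multiples of 1 step per library (100% within 0.1 read), so reads could be recovered. Values were tested as log2(value + 1) with limma 3.58.1 (R 4.3.3), with trend and robust moderation, as 6 group means (12 residual degrees of freedom), for the 15627 genes that reached a value of 10 in 3 or more libraries. P-values were adjusted by Benjamini-Hochberg within each of 11 comparisons at 0.05. Alternatives were pseudocounts of 0.5 and 10, other filters and scalings, edgeR 4.0.16 and DESeq2 1.42.0 on recovered reads, a replicate block and left-out libraries. The script was tested on simulated data. The genes, the lists and the rule for named genes (all 10 genes, the 2 smallest p of a list, any of 5 or fewer called, and the 6 closest in pattern) were chosen with earlier results of these data known. The main fit did not treat libraries of the same number as pairs. Only the replicate block did so, as an alternative run for every comparison. Libraries of the same number were compared by the correlation of their deviations from the group means. Every such correlation was above 0.1 in the genotype comparison under IFNg/LPS (0.256 to 0.546) and IL-4 against M-CSF in p110g-/- (0.187 to 0.397) and WT cells (0.179 to 0.458). The same held in WT cells for IFNg/LPS against M-CSF (0.162 to 0.256) and IL-4 against IFNg/LPS (0.116 to 0.198). For the genotype comparison the lowest was 0.055 in M-CSF and 0.053 under IL-4, so differences by number are a description there. Counting error limits low genes only, and the number of libraries limits the rest.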

Additional observations from a re-analysis of the deposited data

Results flagged for a closer look

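The genotype effect differed between IFNg/LPS and M-CSF for 2 genes of class II turnover, by the interaction term of limma across all tested genes. For March1 the difference of the genotype effect was -1.77 (SE 0.21, adjusted p = 0.00041). It kept its direction in all 32 alternatives and missed the threshold in 1, without replicate 3 in every group (adjusted p = 0.21). For Lgmn the difference was -0.83 (SE 0.18, adjusted p = 0.022). It missed the threshold in 7 of 32 alternatives, without WT M-CSF 2, WT IFNg/LPS 2, p110g-/- M-CSF 2 or 3, p110g-/- IFNg/LPS 2, or replicate 2 or 3 in every group, with log2 values of -1.04 to -0.71 over all alternatives and an adjusted p of up to 0.67. None of the 10 class II genes met this condition. With 3 libraries a group, single libraries were not screened for outlying values.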

How the results depend on the processing

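For the 10 genes the counts of calls under IL-4 against M-CSF (8 to 9 in p110g-/- cells, 8 in WT cells), IL-4 against IFNg/LPS (9 to 10 and 8 to 10), the genotype comparison in M-CSF (0) and both differences of genotype effect (0) stayed within 1.5 times in all 32 alternatives. The genotype comparison under IFNg/LPS, with 2 calls, had 1 without trend and robust moderation, 1 with the libraries of the comparison only and 1 with edgeR, 3 with the replicate block, and 0 to 5 with libraries left out (0 without WT IFNg/LPS 3, p110g-/- IFNg/LPS 2, or replicate 2 or 3 in every group). Under IL-4, with 0 calls, it had 1 with the replicate block (H2-Ab1, adjusted p = 0.026), where not every pair of numbers correlated above 0.1 (lowest 0.053), 5 with the libraries of the comparison only, and 0 to 7 with libraries left out. IFNg/LPS against M-CSF in p110g-/- cells, with 8 calls, had 5 with upper quartile scaling and 3 to 10 with libraries left out (5 without p110g-/- M-CSF 2 or 3 or p110g-/- IFNg/LPS 2, 3 without replicate 2 and 4 without replicate 3 in every group). In WT cells, with 6 calls, it had 2 to 7 (2 without replicate 3 in every group). The block changed no other call among the 10 genes than those given. Upper quartile scaling moved the median of all genes to -0.12 in p110g-/- cells and -0.14 in WT cells in that comparison. Signs turned only for values that had not passed: H2-Eb1 under IFNg/LPS in WT cells was -0.060 with upper quartile scaling, -0.034 with edgeR and -0.016 with DESeq2, and -0.20 to 0.42 with libraries left out. With libraries left out, the genotype values in M-CSF were -0.055 to 0.87 for H2-Oa and -0.016 to 0.71 for H2-Ob, that of H2-DMa under IFNg/LPS -0.038 to 0.56, and those under IL-4 -1.04 to 0.34 for H2-Oa and -0.20 to 0.47 for H2-Ob. IFNg/LPS values were -0.018 to 0.69 for H2-Aa and -0.0027 to 0.88 for H2-Eb1 in p110g-/- cells and -0.019 to 0.32 for Ciita in WT cells, and IL-4 values of H2-Oa in WT cells -1.11 to 0.27. The cause of these changes was not tested. Shares of all tested genes called are given for the main fit only, not for the alternatives. H2-Oa under IL-4, at 2 to 23 reads, is where depth limits most.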
